A study of Mus musculus with 8 samples.

Results

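Voltage-gated sodium channel genes were followed across 8 arrays. All samples came from BALB/c mice, 6 to 9 days old, and from small bowel. The set held 10 genes of the 18193 represented, measured by 29 of 45037 probe sets: the pore-forming subunits Scn1a, Scn2a, Scn3a, Scn8a, Scn9a and Scn11a, the atypical channel gene Scn7a, and the auxiliary subunits Scn2b, Scn3b and Scn4b. A gene entered by its symbol in the platform annotation. Its main probe set was chosen by its log2 value, as the one with the highest mean over all 8 arrays, and the genes were put together with earlier results of these arrays known. That mean includes the tissue arrays, so a probe set bright in tissue was favoured, and other probe sets are given beside it. There were 3 groups: ICC-DMP cells (3 arrays), ICC-MY cells (3 arrays) and whole tunica muscularis (2 arrays), the muscle layers of the gut wall. In this field ICC are interstitial cells of Cajal, which pace gut muscle and relay nerve signals to it. DMP is usually read as deep muscular plexus and MY as myenteric, though the labels print only the abbreviations. The labels name no transgene, drug or genetic change in any group, and they give neither the way the cells were isolated nor the number of animals behind a sample. The titles call the samples biological replicates without saying that they came from separate animals, so p-values measure the spread between these samples.

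Sodium channels open when the membrane depolarizes and carry the fast inward current of the action potential. The large alpha subunit forms the pore; the beta subunits, small membrane proteins with an immunoglobulin-like outer domain, change its gating and help place it in the membrane. In the gut wall enteric neurons are the classical users of these channels, while the pacemaker current of ICC is carried chiefly by the chloride channel encoded by Ano1.

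In the mouse RefSeq annotation several of the genes are neighbours among coding genes. Along chromosome 2, Scn3a is followed directly by Scn2a, and Scn1a by Scn9a and then Scn7a. On chromosome 9, Scn2b is followed directly by Scn4b. RefSeq promoter windows (assembly GRCm38.p6, 250 bases before to 50 after a gene's start) were found for 8 of the 10 members, 10 windows in all. They are shown for Scn9a and Scn2a, which were low in both ICC groups, and for the neighbours Scn2b and Scn4b, which had different patterns. Each is written 5' to 3' on the gene's strand, and capitals mark a motif match.
Scn9a, chr2:66634913-66635212, minus strand: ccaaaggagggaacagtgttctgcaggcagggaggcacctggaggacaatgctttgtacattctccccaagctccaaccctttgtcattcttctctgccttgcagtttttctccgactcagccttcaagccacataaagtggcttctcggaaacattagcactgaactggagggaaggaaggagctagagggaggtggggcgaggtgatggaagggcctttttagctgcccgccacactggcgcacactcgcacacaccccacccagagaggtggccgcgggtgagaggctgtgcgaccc
Scn2a, its second start, chr2:65668436-65668735, plus strand: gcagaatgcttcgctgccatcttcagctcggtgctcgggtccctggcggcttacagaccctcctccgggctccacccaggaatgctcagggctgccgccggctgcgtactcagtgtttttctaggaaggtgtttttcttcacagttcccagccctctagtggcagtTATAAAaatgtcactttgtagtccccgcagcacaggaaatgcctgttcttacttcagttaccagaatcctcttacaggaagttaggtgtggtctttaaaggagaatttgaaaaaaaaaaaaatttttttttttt
Scn2b, chr9:45117626-45117925, plus strand: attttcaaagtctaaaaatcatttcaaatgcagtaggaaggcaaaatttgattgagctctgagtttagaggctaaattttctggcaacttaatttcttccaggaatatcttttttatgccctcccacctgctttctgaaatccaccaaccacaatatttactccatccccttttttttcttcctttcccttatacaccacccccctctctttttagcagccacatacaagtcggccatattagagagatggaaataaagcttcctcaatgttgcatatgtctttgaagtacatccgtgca
Scn4b, chr9:45138374-45138673, plus strand: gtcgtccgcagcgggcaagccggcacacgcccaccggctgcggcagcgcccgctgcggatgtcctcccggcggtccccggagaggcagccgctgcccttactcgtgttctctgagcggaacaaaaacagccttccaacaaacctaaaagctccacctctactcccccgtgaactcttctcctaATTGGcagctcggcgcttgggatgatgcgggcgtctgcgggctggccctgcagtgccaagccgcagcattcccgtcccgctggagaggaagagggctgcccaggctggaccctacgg

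The windows were searched on both strands, without mismatches, for 3 common promoter motifs. The letters TATAAA, those of the box bound by the TATA-binding protein, were found in the Scn2a window shown, at position -84 from the start, and in 13.6% of all 32851 windows of 300 bases. The motif CCAAT, bound by the factor NF-Y, was found in Scn4b and Scn1a and in 37.4% of all windows. The motif GGGCGG, bound by factors of the Sp family, was found in Scn7a and in 35.7% of all windows. No motif searched for overlapped another in these windows. The neighbours differed in base composition, with 38.3% G and C in the Scn2b window and 66.3% in that of Scn4b, against a median of 52.7% over all windows. A match of letters is a description only, and the arrays do not measure binding.

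Array medians lay between 4.18 and 4.30 on the log2 scale. The spread over probe sets was narrower on replicate 1 of ICC-MY and of tissue (SD 1.98 and 2.06) than on the others (2.22 to 2.31). Of 8 listed ICC genes, 4 passed as higher than tissue in ICC-DMP and 7 in ICC-MY, and 0 as lower; such lists can owe members to earlier profiles like these. Of 17 enteric neuron markers measured, 16 were lower in ICC-DMP and 15 in ICC-MY.

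Compared with tissue, 7 of the 10 sodium channel genes were lower in ICC-DMP and 6 in ICC-MY, and 0 were higher in either (limma, adjusted p under 0.05 over all 18193 genes; also 0 at an unadjusted p under 0.05). Of all genes, 7.32% were called lower in ICC-DMP and 9.78% in ICC-MY; 3.72% and 4.05% were called higher, and 11% and 13.8% in either direction. The median log2 difference of the 10 genes was -2.28 in ICC-DMP and -2.02 in ICC-MY, against -0.04 and -0.02 over all genes. The arrays did not overlap, with ICC below tissue, for 8 of the 10 genes in ICC-DMP and 7 in ICC-MY, against 23.1% and 20.7% of all genes. With ICC above tissue they did so for 0 members, against 15.5% and 13.4%. Both comparisons share the 2 tissue arrays, and the spread between those limits every difference from tissue. In bulk samples like these, fewer cells of a type and less RNA per cell cannot be told apart.

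**Figure D1:**
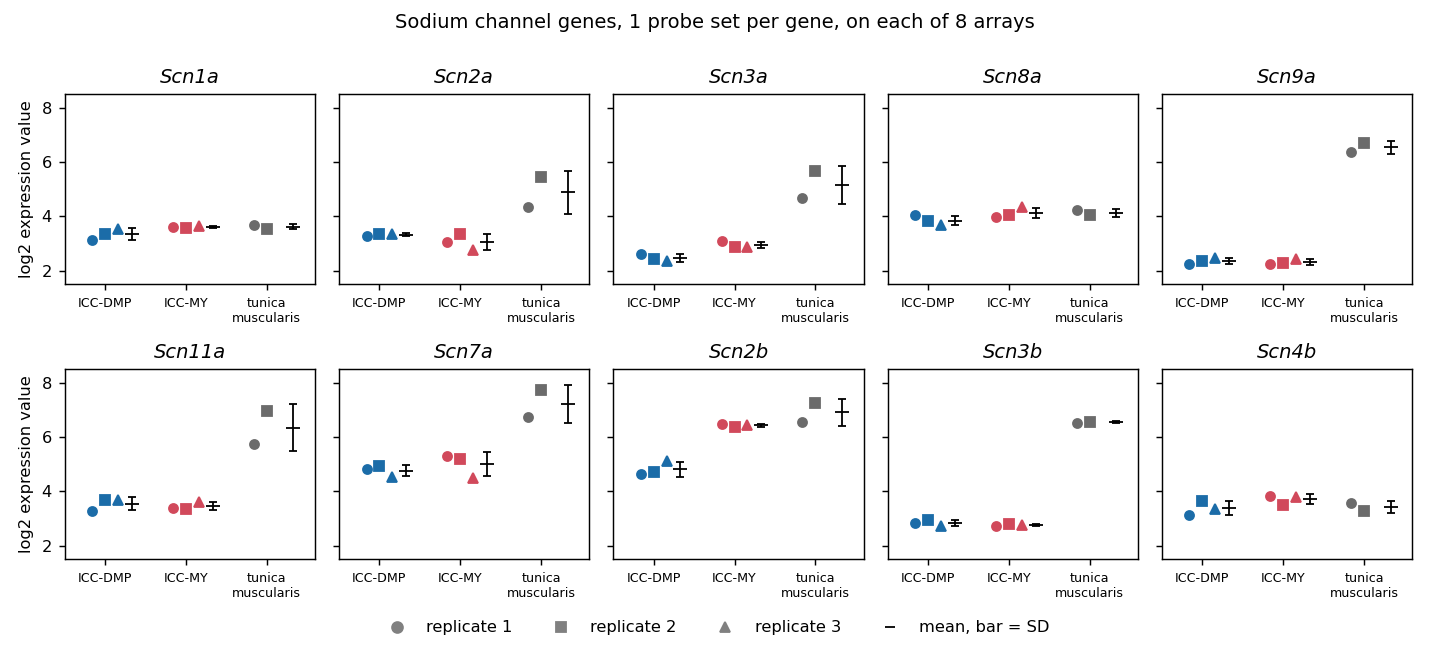
Log2 expression value (vertical axis) of each sodium channel gene on each array, by group (horizontal axis); symbols are replicates, and the black bar is the mean with its SD (n = 3, 3 and 2). Scn9a and Scn3b read 2.24 to 2.93 on the ICC arrays and 6.38 to 6.71 in tissue, while the ICC-MY arrays of Scn2b, at 6.35 to 6.49, lie close to tissue.

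Among the main probe sets of the alpha subunits, that of Scn9a differed most from tissue. Scn9a encodes a channel of peripheral sensory, sympathetic and enteric neurons that amplifies small depolarizations. It read 2.24, 2.35 and 2.45 in ICC-DMP, 2.24, 2.30 and 2.44 in ICC-MY, and 6.38 and 6.71 in tissue. All 6 ICC arrays lay far below both tissue arrays, and the ICC classes overlapped. The difference from tissue was -4.20 (SE 0.16, adjusted p = 4.07e-06 in limma) in ICC-DMP and -4.22 (SE 0.16, adjusted p = 3.57e-06) in ICC-MY. Between the classes it was 0.02, with a 95% interval from -0.31 to 0.35. The gene had 4 other probe sets, of which 2 were also lower in both classes. One fell by 2.63 in ICC-DMP and 2.57 in ICC-MY, the other by 0.86 and 0.71, and for the other two no difference passed over all 45037 probe sets. With the 5 probe sets averaged, the differences were -1.59 in both classes, smaller than those of Scn11a, so the order of the genes depends on the probe sets used.

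Scn11a encodes a channel that opens near rest, resists tetrodotoxin and is known from sensory and intrinsic enteric neurons. It has a single probe set here. It read 3.28, 3.69 and 3.67 in ICC-DMP, 3.37, 3.36 and 3.62 in ICC-MY, and 5.73 and 6.96 in tissue. Both tissue arrays lay above all ICC arrays but well apart from each other. The differences from tissue were -2.80 (SE 0.33, adjusted p = 0.000924 in limma) in ICC-DMP and -2.90 (SE 0.33, adjusted p = 0.00061) in ICC-MY.

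Scn3a, a channel gene typical of the embryonic and newborn nervous system, read 2.62, 2.42 and 2.36 in ICC-DMP, 3.08, 2.89 and 2.89 in ICC-MY, and 4.67 and 5.65 in tissue. Tissue was above every ICC array. The differences were -2.69 (SE 0.27, adjusted p = 0.000373 in limma) and -2.21 (SE 0.27, adjusted p = 0.000901). ICC-DMP arrays also lay below all ICC-MY arrays, but by 0.48 (SE 0.24), and that difference did not pass (adjusted p = 0.351). The second Scn3a probe set read alike in all groups, at -0.06 and -0.10 against tissue, and did not pass. The average of both was -1.38 and -1.15.

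Scn2a encodes a channel of axon initial segments and unmyelinated axons. It read 3.28, 3.36 and 3.36 in ICC-DMP, 3.06, 3.35 and 2.75 in ICC-MY, and 4.33 and 5.44 in tissue. Tissue was again above all ICC arrays, and the classes overlapped. The differences were -1.55 (SE 0.31, adjusted p = 0.0151 in limma) in ICC-DMP and -1.83 (SE 0.31, adjusted p = 0.00528) in ICC-MY. In ICC-DMP, leaving out its replicate 1 or its replicate 2 took the adjusted p to 0.062 or 0.0534, and without tunica muscularis replicate 2 the difference was -0.997 (0.048). It passed in 14 of 16 alternatives, with an adjusted p from 0.00105 to 0.062. With its probe sets averaged the differences were -0.51 and -0.60, and 0 of the 3 other Scn2a probe sets passed.

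Scn1a and Scn8a did not pass in any comparison. Scn8a, the main channel of nodes of Ranvier, read 4.04, 3.82 and 3.68 in ICC-DMP, 3.97, 4.06 and 4.34 in ICC-MY, and 4.22 and 4.03 in tissue. On its main probe set all groups overlapped. The differences from tissue were -0.28 (95% interval -0.69 to 0.13) and 0.00 (-0.41 to 0.41), where a change of sign between alternatives has no weight. Another Scn8a probe set read 2.99, 2.52 and 3.04 in ICC-DMP, 3.62, 3.33 and 3.30 in ICC-MY, and 3.23 and 3.10 in tissue. On it no groups overlapped, but no comparison passed (-0.57 between the classes, limma adjusted p = 0.104 over all probe sets). The remaining Scn8a probe sets lay between -0.25 and -0.03 against tissue and did not pass. Scn1a, known from inhibitory neurons of the brain, read 3.13, 3.36 and 3.55 in ICC-DMP, 3.62, 3.55 and 3.65 in ICC-MY, and 3.68 and 3.55 in tissue. Its ICC-DMP arrays ended just under those of the other groups, with a difference from tissue of -0.27 (interval -0.64 to 0.11). The other Scn1a probe sets were at -0.03 and 0.01 in ICC-DMP against tissue and at 0.11 and -0.05 in ICC-MY, and did not pass. Scn1a and Scn8a, like Scn4b, read below the array median on nearly all arrays (8, 7 and 8 of 8). The main probe sets of Scn2a, Scn3a, Scn3b, Scn9a and Scn11a did so on 6 arrays, the ICC arrays. The file holds no detection calls, so whether such probe sets measured any transcript there is not known, and no fold is given for these genes.

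Scn7a encodes a sodium channel-like protein that is not opened by voltage in the usual way; it serves as a sodium level sensor and is known from glia and Schwann cells. It read 4.80, 4.93 and 4.53 in ICC-DMP, 5.28, 5.20 and 4.48 in ICC-MY, and 6.72 and 7.71 in tissue. Every ICC array was below both tissue arrays. The differences were -2.46 (SE 0.34, adjusted p = 0.00209 in limma), 5.5-fold lower, and -2.23 (SE 0.34, adjusted p = 0.00289), 4.68-fold lower. A second probe set was lower by -2.16 and -1.54, and its ICC-MY arrays (3.48 to 4.22) lay above those of ICC-DMP (3.09 to 3.28). That difference did not pass (-0.62, adjusted p = 0.203 over all probe sets). The third was at -0.13 and -0.10 and did not pass, and the average of all was -1.59 and -1.29.

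Of the auxiliary subunits, Scn3b encodes a beta subunit held to its alpha subunit without a covalent bond. It read 2.84, 2.93 and 2.74 in ICC-DMP, 2.73, 2.80 and 2.76 in ICC-MY, and 6.51 and 6.56 in tissue. The gap to tissue was wide and the replicates of each group were tight. The differences were -3.70 (SE 0.14, adjusted p = 3.12e-06 in limma) and -3.77 (SE 0.14, adjusted p = 3.08e-06). The other Scn3b probe set was at -0.24 and -0.16 and did not pass, and the average of both gave -1.97 in each class.

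Scn4b encodes a beta subunit linked to resurgent sodium current. It read 3.13, 3.64 and 3.34 in ICC-DMP, 3.83, 3.50 and 3.80 in ICC-MY, and 3.59 and 3.28 in tissue, and all 3 groups overlapped. Its differences from tissue were -0.06 (95% interval -0.53 to 0.40) and 0.28 (-0.19 to 0.74), and neither passed in limma (adjusted p = 0.932 and 0.503). The Scn4b difference in ICC-DMP changed sign without tunica muscularis replicate 1 (0.09).

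Scn2b had another pattern. It encodes a beta subunit joined to its alpha subunit by a disulfide bond. It read 4.62, 4.69 and 5.11 in ICC-DMP, 6.49, 6.35 and 6.43 in ICC-MY, and 6.54 and 7.25 in tissue. ICC-DMP lay below every other array, and ICC-MY just below the lower tissue array. ICC-DMP differed from tissue by -2.09 (SE 0.24, adjusted p = 0.000794 in limma), 4.26-fold lower. ICC-MY differed by -0.48 (SE 0.24, adjusted p = 0.28), with a 95% interval from -1.02 to 0.07. Without both narrow-range arrays, a fit that leaves 1 tissue array (replicate 2), that difference was -0.86. It did not pass in any alternative that keeps both tissue arrays. The size rests on the tissue arrays, being -0.83 without replicate 1 and -0.12 without replicate 2.

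**Figure D2:**
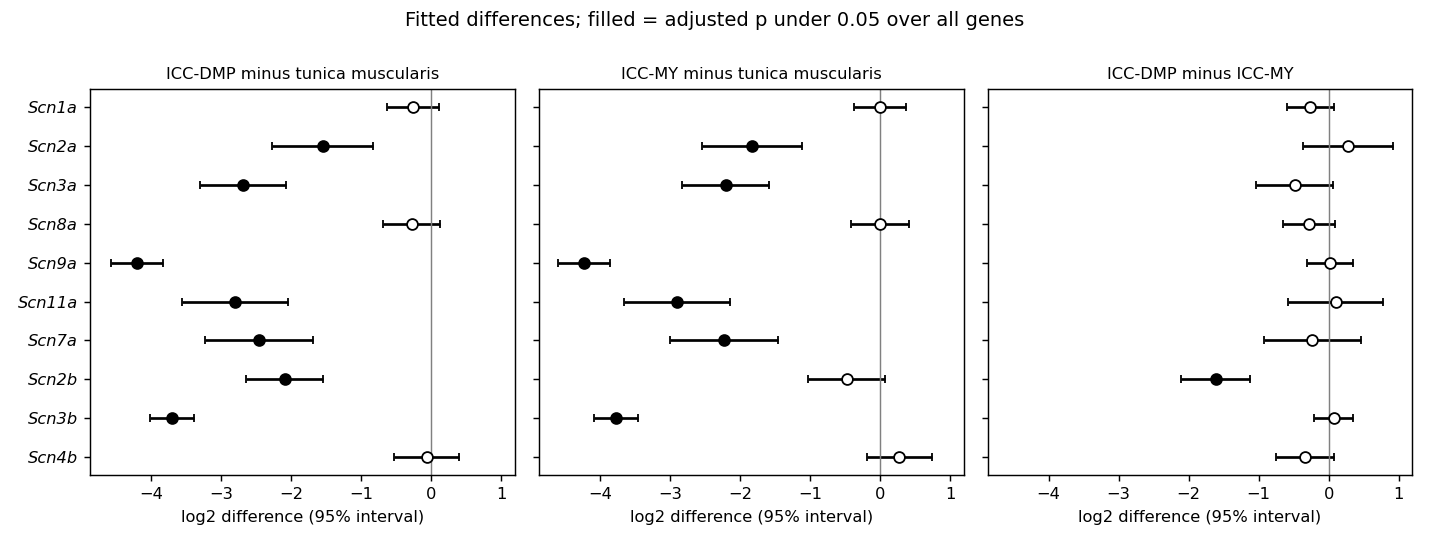
Fitted log2 difference (horizontal axis) with its 95% interval for each of the 10 genes in the 3 comparisons; filled points had an adjusted p under 0.05 over all genes. In both comparisons with tissue the points reach down to -4.20 and -4.22 (Scn9a), and between the ICC classes Scn2b alone is filled, at -1.62.

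Between the ICC classes, Scn2b was the 1 sodium channel gene of 10 that passed, lower in ICC-DMP by -1.62 (SE 0.21, adjusted p = 0.00196 in limma), 3.07-fold. Of all genes, 3.3% were called lower in ICC-DMP than in ICC-MY and 5.36% higher. The call held in 17 of 17 alternatives, with differences from -1.77 to -1.52. With the replicate number as a block, 14.4% of all genes passed in either direction in this comparison, against 8.67% without it, and the members' count was again 1. Of the genes called, 38.1% were lower in ICC-DMP, and 49.9% under quantile normalization. A second Scn2b probe set read 3.68, 3.79 and 3.76 in ICC-DMP, 6.48, 6.48 and 6.88 in ICC-MY, and 6.55 and 6.93 in tissue. On it ICC-MY overlapped tissue, and ICC-DMP differed from ICC-MY by -2.87 (adjusted p = 4.65e-05 over all probe sets). The third probe set stayed between 3.12 and 3.93 in all groups and did not pass. For the other 9 genes the widest 95% interval between the classes was that of Scn7a, from -0.93 to 0.46. Arrays of the classes did not overlap for 3 of the 10 genes (Scn2b, Scn1a and Scn3a), all lower in ICC-DMP, against 11.7% of all genes; 0 were higher without overlap, against 13.9%.

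**Figure D3:**
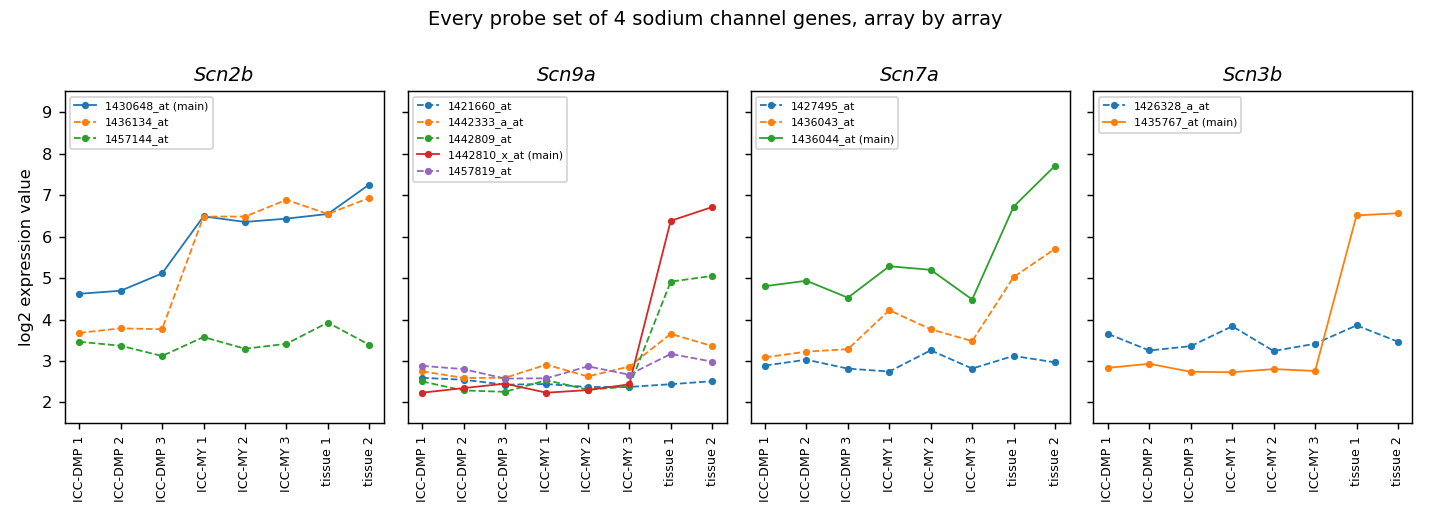
Log2 expression value (vertical axis) of every probe set of Scn2b, Scn9a, Scn7a and Scn3b on the 8 arrays (horizontal axis); solid lines are the main probe sets, and lines only join the arrays of a probe set. For Scn2b the main and the second probe set step up from ICC-DMP to ICC-MY, and for Scn9a and Scn3b the main probe set steps up only in tissue.

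Markers of other cell types moved with several of these genes. The mean log2 value over the 17 enteric neuron markers was 3.80 to 3.92 on the ICC-DMP arrays, 4.05 to 4.10 on the ICC-MY arrays and 7.57 to 7.85 in tissue, and the list's median difference was -4.41 in ICC-DMP and -4.18 in ICC-MY. Stmn2, a growth-associated protein of neurons, read 4.63 to 4.90 on the ICC arrays and 10.48 and 11.09 in tissue. Nos1, the nitric oxide synthase of inhibitory motor neurons, read 5.80 to 6.06 and 8.82 and 8.20. No marker reads 0 on this scale. Other lists were higher in tissue too. All 5 mesothelium markers passed as lower in both classes (medians -5.69 and -5.88), with list means of 3.39 to 3.76 on the ICC arrays and 8.79 and 9.16 in tissue. Of 7 macrophage markers 5 passed as lower in each class (medians -1.14 and -1.22; list means 4.01 to 4.28 against 5.84 and 6.27), and of 7 epithelium markers 3 in each (medians -1.73 and -1.51; 3.66 to 4.03 against 6.09 and 7.73). The part of RNA from any of these cells in the tissue levels of Scn9a, Scn11a, Scn3a, Scn2a and Scn3b was not tested. The 3 genes most like Scn9a over the 8 arrays were Stmn2, Fstl5 and Elavl4 (Pearson r 0.999 for each), a description over arrays that fall into groups. Elavl4, an RNA-binding protein of neurons, read 3.81 to 4.10 on the ICC arrays and 7.98 and 8.38 in tissue.

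The 6 enteric glia and Schwann cell markers measured averaged 4.89 to 5.12 on the ICC-DMP arrays, 4.44 to 4.59 on the ICC-MY arrays and 6.38 to 6.68 in tissue. Of them 3 were lower in each class than in tissue. Erbb3, a neuregulin receptor of Schwann cells and glia, read 5.59 to 5.72, 4.52 to 4.95, and 7.43 and 7.76. Sox10, the transcription factor that defines these cells, read 5.91 to 6.69 on the ICC arrays and 7.55 and 6.72 in tissue. The part of glial RNA in the Scn7a difference was not tested.

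Between the ICC classes, where Scn2b differed, 14 of 17 neuron markers did not pass, 3 were lower in ICC-DMP and 0 higher. Of all genes, 3.3% were called lower and 5.36% higher. The 3 that were lower in ICC-DMP, looked up after their values were seen, were Ret (-1.46), Elavl3 (-1.32) and Nefl (-0.96). In ICC-DMP, ICC-MY and tissue the group means of Ret were 4.19, 5.65 and 9.01. Those of Nefl were 2.78, 3.74 and 7.99, and those of Elavl3 5.45, 6.76 and 6.68. The mean of the 7 endothelial markers also differed between the classes. It was 3.55 to 3.77 on the ICC-DMP arrays, 4.09 to 5.04 on the ICC-MY arrays and 4.85 to 5.09 in tissue. Of these, 3 passed as lower in ICC-DMP than in ICC-MY and 0 as higher. The group means of Esam, Kdr, Vwf and Tek had the Scn2b order, lowest in ICC-DMP and highest in tissue. Of these genes Esam alone passed between the classes. Vwf (-0.29, adjusted p = 0.654 in limma) and Tek (-0.25, adjusted p = 0.799) did not, and their class arrays overlapped. The means of Cdh5, Emcn and Pecam1 were highest in ICC-MY. Esam, an adhesion molecule of endothelial junctions, read 5.40, 4.58 and 5.18 in ICC-DMP, 7.13, 7.77 and 6.48 in ICC-MY, and 7.56 and 7.69 in tissue. Kdr, the endothelial VEGF receptor, read 4.85 to 5.27, 5.41 to 7.0, and 6.57 and 6.86, and did not pass between the classes (adjusted p = 0.0785 in limma). Smooth muscle markers went the other way, averaging 9.32 to 9.55 in ICC-DMP and 6.78 to 7.45 in ICC-MY. The part of neuronal, endothelial or muscle RNA in the Scn2b difference was not tested. The 3 genes most like Scn2b over the 8 arrays were Nat8l, Limd2 and Acaa1b (Pearson r 0.986, 0.976 and 0.976).

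**Figure D4:**
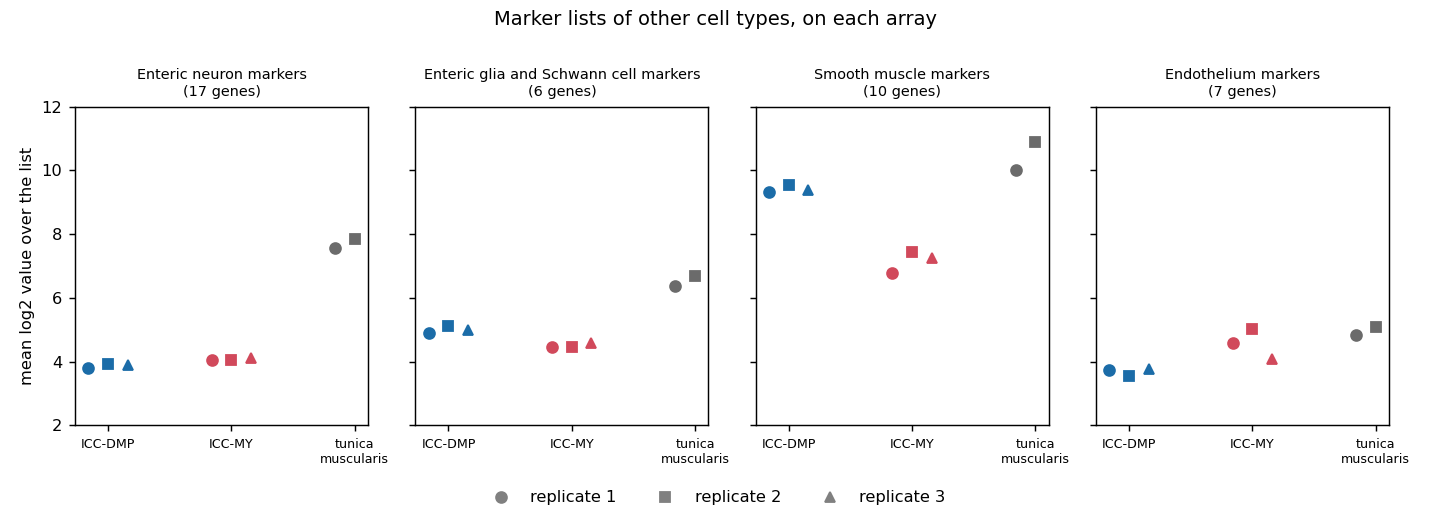
Mean log2 value (vertical axis) over each list of marker genes on each array, by group (horizontal axis); symbols are replicates. Neuron markers lie between 3.80 and 4.10 on all ICC arrays and at 7.57 and 7.85 in tissue, and endothelial markers are lowest in ICC-DMP, at 3.55 to 3.77.

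Scn10a and Nalcn were the further sodium channel genes analysed here. Nalcn, the sodium leak channel that sets resting excitability, read 2.38, 2.40 and 2.27 in ICC-DMP, 2.34, 2.57 and 2.45 in ICC-MY, and 4.94 and 5.24 in tissue. It was lower by -2.74 (SE 0.16, adjusted p = 1.75e-05 in limma) and -2.64 (SE 0.16, adjusted p = 1.95e-05), and its second probe set was lower too, by -1.11 and -1.09. Scn10a, a channel gene of sensory neurons and the neighbour of Scn11a, read between 2.68 and 3.19 on all arrays and did not pass in any comparison; its difference from tissue in ICC-DMP was -0.05, with a sign that changed without tunica muscularis replicate 1 (0.02).

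Proteins that anchor, traffic or modulate sodium channels were taken as a list of 30 genes, of which 28 were measured. Against tissue, 12 were lower and 1 higher in ICC-DMP, and 11 lower and 5 higher in ICC-MY; the list's median difference was -0.50 and -0.43. Of all genes 7.32% were lower and 3.72% higher in ICC-DMP, and 9.78% and 4.05% in ICC-MY, so 1 of 28 higher is close to the share of all genes. In ICC-DMP the largest decreases were those of Fgf13, an intracellular channel-binding factor (-4.95), the adhesion molecule L1cam (-2.70) and Ptprz1, a receptor phosphatase of glia (-2.41). The 1 increase was that of Camk2d (1.0, adjusted p = 0.0402 in limma), which passed in 8 of 17 alternatives, with an adjusted p from 0.0174 to 0.24. Leaving out ICC-DMP replicate 1, 2 or 3 gave 0.136, 0.0514 and 0.131, ICC-MY replicate 2 or 3 gave 0.0586 and 0.0523, and tunica muscularis replicate 1 gave 0.219. With averaged probe sets the difference was 0.27.

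In ICC-MY, Fgf13 (-5.67), the axonal adhesion gene Cntn1 (-5.52) and S100a10, which carries channels to the membrane (-3.65), were lowest against tissue. The T-type calcium channel gene Cacna1h (2.54), Fgf12 (2.31) and Nrcam (2.11) were highest. Nrcam encodes an adhesion molecule that clusters sodium channels at nodes of Ranvier. It read 4.32, 4.73 and 4.19 in ICC-DMP, 7.51, 8.13 and 8.24 in ICC-MY, and 5.70 and 6.00 in tissue, so the classes lay on either side of tissue. Fgf12, whose protein binds the tail of the alpha subunit and shifts its inactivation, read 3.64, 3.72 and 3.90 in ICC-DMP, 5.76, 6.30 and 6.20 in ICC-MY, and 3.79 and 3.77 in tissue.

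Between the classes 6 of these 28 genes were lower and 5 higher in ICC-DMP, with a median of 0.22 against -0.02 over all genes. Of all genes 3.3% were called lower and 5.36% higher in this comparison. The lowest were Nrcam (-3.54, SE 0.23, adjusted p = 6.52e-05 in limma), Cacna1h (-3.33, SE 0.34) and Fgf12 (-2.33, SE 0.17). The highest were Cntn1 (3.23, SE 0.34), Cav3, the muscle caveolin (2.45, SE 0.20), and S100a10 (2.20, SE 0.23). Cntn1 read 7.95, 7.96 and 7.23 in ICC-DMP, 4.66, 4.88 and 3.92 in ICC-MY, and 9.56 and 10.44 in tissue. Averaging the probe sets of a gene gave smaller sizes of the same sign for Nrcam (-1.65) and Cntn1 (1.73) between the classes. Against tissue it gave -2.58 for Fgf13 and -1.42 for L1cam in ICC-DMP, and in ICC-MY -2.82 for Fgf13, -3.01 for Cntn1 and 1.09 for Nrcam. Not every gene moved toward a smaller size, and Fgf12 between the classes ran from -2.77 to -2.22 over the alternatives.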

How the data were processed

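The deposited values, 1 per probe set and array, are on a log2 scale. The submitters' processing notes list RMA and limma, with no version and no word on what each was used for. Per the labels' protocols, about 50 ng of total RNA was amplified in 2 rounds before biotin labelling. No further normalization was applied. After 64 control probe sets were left out, 34945 of 45037 named 1 gene, 932 several, and 9160 are unnamed here; for each of 18193 genes the probe set of highest mean was kept. The fit used limma 3.58.1 under R 4.3.3 (lmFit, then contrasts.fit and eBayes) on all 8 arrays in 3 groups, with 5 residual degrees of freedom. The moderated test was 2-sided, adjusted by Benjamini-Hochberg over 18193 genes and passed under 0.05. Errors are standard errors of the fit or SDs over arrays, and intervals are 95%. The number of arrays limits the precision.

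The members and lists were chosen with earlier results of these data known. All members were named. Of the partner and transport lists the 3 largest called differences per comparison and direction were named, and of the neuron, glia and endothelium lists the 2 brightest genes. Further markers are named as the most alike genes, or to account for a count, an order or a spread between arrays after their values were seen. The 3 genes most like the member with the largest called difference were named by Pearson correlation. Same-numbered arrays of the 2 ICC classes deviated together from their group means (correlations 0.289, 0.5 and 0.387). Those of tissue and each class gave 0.155 to 0.608. With only 2 tissue arrays their deviations mirror each other, so these values do not settle a pairing. ICC-DMP replicate 3, without a tissue array of its number, gave 0.145 with tissue replicate 1. The replicate number was used as a block in an alternative fit only. The main fit held no such term, so its SEs, intervals and p-values make no use of a pairing.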

Additional observations from a re-analysis of the deposited data

Results flagged for a closer look

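Scn2b differed from tunica muscularis unequally in the 2 ICC classes: the test of that difference, which is the comparison of ICC-DMP with ICC-MY in the same limma fit, gave -1.62 (SE 0.21, adjusted p = 0.00196). All 3 ICC-DMP arrays were below all 3 ICC-MY arrays.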

How the results depend on the processing

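The 7, 6 and 1 members called in ICC-DMP and ICC-MY against tissue and between the classes were the same genes with the replicate block, under quantile normalization, with arrays centred on their medians, with averaged probe sets, with every probe set tested, with array weights and with only the compared groups fitted. Leaving out each array in turn gave 6 to 7, 6 and 1. With genes below the median level left out, 2 members could be tested (Scn2b and Scn7a), and 2, 1 and 1 passed; fewer genes tested sets these counts. Without both narrow-range arrays, a fit that leaves 1 tissue array, Scn2b was at -0.86 in ICC-MY against tissue. Of 486 recomputed member differences 18 changed sign, none of which passed in either form. With averaged probe sets Scn1a was at 0.0189 in ICC-MY against tissue, and Scn3b at -0.00271 and Scn9a at -0.00406 between the classes. With array weights Scn8a was at 0.0570 in ICC-MY and Scn9a at -0.0378 between the classes. Without both narrow-range arrays Scn4b was at 0.0887 in ICC-DMP, Scn1a at 0.0527 and Scn8a at 0.171 in ICC-MY, and Scn9a at -0.0226 between the classes. Leaving out each array gave -0.217 to 0.0887 for Scn4b in ICC-DMP and -0.0327 to 0.0782 for Scn9a between the classes. In ICC-MY it gave -0.0687 to 0.0585 for Scn1a and -0.109 to 0.0944 for Scn8a. Scn10a is not a member and is not counted in the 18. In ICC-DMP it was at 0.0244 without both narrow-range arrays, and at -0.128 to 0.0244 with each array left out. The cause was not tested. Of 972 recomputed values of list genes, chosen after seeing the data, 55 lost their call.

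Over all genes, calls in ICC-DMP against tissue were 2009, but 3129 under quantile normalization and 1264 and 1296 without ICC-DMP replicate 1 or 2. In ICC-MY against tissue 2516 became 3911 under quantile normalization and 1520 with only these groups fitted. Between the classes 1577 became 2617 with the replicate block, 2557 under quantile normalization, 2646 with array weights, 2630 without both narrow-range arrays, and 991 and 996 without ICC-DMP replicate 1 or 2. Dim probe sets limit what can be said of Scn1a, Scn4b and Scn8a in all groups, and of the ICC levels of Scn2a, Scn3a, Scn3b, Scn9a and Scn11a.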

Other observations

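Genes that move sodium without voltage gating were a list of 26, of which 21 were measured. Against tissue, 3 were lower and 1 higher in ICC-DMP, 2 lower and 2 higher in ICC-MY, and between the classes 2 were lower and 1 higher in ICC-DMP; the list's median differences were -0.22, -0.19 and -0.04. Of all genes 7.32% were lower and 3.72% higher in ICC-DMP, 9.78% and 4.05% in ICC-MY, and 3.3% and 5.36% between the classes, so 1 of 21 higher in ICC-DMP in either comparison and 2 of 21 lower in ICC-MY are close to the shares of all genes. Slc8a3, a sodium-calcium exchanger, read 11.01, 11.08 and 11.14 in ICC-DMP, 8.45, 8.93 and 8.67 in ICC-MY, and 7.56 and 7.99 in tissue. It was higher in ICC-DMP by 3.30 (SE 0.19, adjusted p = 2.09e-05 in limma) than in tissue and by 2.40 (SE 0.17, adjusted p = 1e-04) than in ICC-MY, or by 1.88 and 1.41 with its probe sets averaged. In ICC-MY it was higher than in tissue by 0.91 (adjusted p = 0.0161), but not without tunica muscularis replicate 1 (0.0929) or with only these groups fitted (0.0822), and with its probe sets averaged by 0.47; the adjusted p ran from 0.00127 to 0.0929 over the alternatives.

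Slc4a4, a sodium bicarbonate cotransporter, read 6.58, 6.31 and 5.62 in ICC-DMP, 9.01, 9.78 and 9.58 in ICC-MY, and 8.06 and 8.60 in tissue. ICC-DMP was lower than tissue by -2.16 (SE 0.34) and than ICC-MY by -3.29 (SE 0.30, adjusted p = 0.000291 in limma), or by -1.20 and -2.13 with its probe sets averaged. Slc12a2, the sodium-potassium-chloride cotransporter, was lower in ICC-DMP than in ICC-MY by -2.44 (SE 0.47, adjusted p = 0.0136), with an adjusted p up to 0.0645 when 1 array was left out: ICC-DMP replicate 1 (0.0645) or 3 (0.0584), or ICC-MY replicate 3 (0.0533). In ICC-MY it was higher than in tissue by 2.17 (adjusted p = 0.0273), in 11 of 17 alternatives; without tunica muscularis replicate 1 it was 1.42 (0.152), and leaving out ICC-DMP replicate 1 or 2 or ICC-MY replicate 2 or 3 gave 0.0567, 0.0521, 0.0698 and 0.0778. The pump regulators Fxyd6 and Fxyd3 were lower than in tissue in ICC-DMP (-2.27 and -2.16) and in ICC-MY (-1.85 and -2.03); without both narrow-range arrays Fxyd3 in ICC-MY was at -1.34.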
